A study of Mus musculus with 6 samples.

Results

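Of 9 genes for chemokines and cytokines that glioma cells can secrete, 7 were measurable above the filter on low counts in KMWT1 cells. None of these 7 was called changed with YY1 siRNA after adjustment over all genes tested. The 1 gene called was Yy1 itself, at 62.3% of control siRNA. The 9 genes are Ccl2, Ccl5, Ccl7, Cxcl1, Cxcl10, Cxcl12, Csf1, Il6 and Lif. They were taken by symbol from 24982 gene symbols in the count tables, and all 9 were found. Ccl5 and Cxcl1 had the smallest p-values, with Ccl5 at 82.9% of control siRNA (95% interval 74.0% to 92.9%) and Cxcl1 at 134% (105% to 170%), and neither passed adjustment.

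Chemokines are small secreted proteins that draw leukocytes along a gradient through G protein-coupled receptors. CC ligands such as Ccl2, Ccl5 and Ccl7 act mainly on monocytes, macrophages and T cells, while CXC ligands act on neutrophils (Cxcl1), activated T cells (Cxcl10) or progenitor cells (Cxcl12). Csf1 keeps macrophages and microglia alive, and Il6 and Lif signal through receptors that share the gp130 chain and activate STAT3. In gliomas such signals are known for bringing monocytes and microglia into the tumour. Transcription of many of these genes is induced by NF-kB, and that of Cxcl10 and Ccl5 by interferon-activated factors as well.

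The study lowered YY1, a zinc finger transcription factor, in KMWT1, a mouse glioma cell line grown in serum-containing medium. RNA was taken 48 hours after transfection with a pool of siRNAs against YY1 (3 samples, numbered 4, 5 and 6) or with control siRNA (3 samples, numbered 1, 2 and 3). KMWT1 is a single line, and separate cultures per sample are not stated. The p-values therefore reflect sample-to-sample spread that may be purely technical, and in bulk RNA fewer expressing cells and less RNA per cell cannot be told apart. Reads were counted per gene, and levels are given as CPM, counts scaled to a common library size with TMM normalization.

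Counts in genes ranged from 15738457 to 19210104 in YY1 siRNA samples and from 18680762 to 20644057 in control siRNA samples. A count of 3 then equals 0.145 to 0.191 CPM. YY1 siRNA sample 6 had the fewest counts, is the 1 sample whose table is not marked as combined, and differed most from its group (chi-square per degree of freedom 22.7 and 30.9 against samples 5 and 4). Yy1 itself stood at 79.2 ± 1.86 CPM in YY1 siRNA samples and 127 ± 0.826 CPM in control siRNA samples (SD, n = 3 each; log2 fold change -0.68, SE 0.0644, edgeR adjusted p = 0.00154). Among 12 glioma and progenitor markers, 7 reached at least 10 CPM, namely Vim, Cd44, Sox2, Itga6, Sox9, Nes and Egfr. The others, Gfap, Olig2, Prom1, Fabp7 and Msi1, were under 1 CPM. The line thus lacked the astrocyte marker Gfap and the oligodendrocyte lineage marker Olig2 at that level. Of 16 microglia and macrophage markers, cells that also make chemokines, 13 were under 1 CPM, and Tyrobp, C1qa and C1qb had no count in any sample. The summed level of the 16 was 74.8 to 84.5 CPM in YY1 siRNA samples and 83.4 to 86.9 CPM in control siRNA samples, carried by Tmem119 (42.3 ± 2.90 CPM in YY1 siRNA and 49.9 ± 2.12 CPM in control siRNA samples) and Cd68 (29.2 ± 2.15 CPM in YY1 siRNA and 29.0 ± 3.63 CPM in control siRNA samples). Summed endothelial markers, 8 of 11 of them under 1 CPM, gave 156 to 193 CPM in YY1 siRNA samples and 170 to 199 CPM in control siRNA samples. Flt1 and Cdh5 carried that sum, at means of 123 and 50.3 CPM over all 6 samples. Summed fibroblast and pericyte markers, 4 of 13 of them under 1 CPM, gave 1182 to 1432 CPM in YY1 siRNA samples and 1333 to 1561 CPM in control siRNA samples. Col3a1 made up most of that sum (672 to 873 CPM in YY1 siRNA and 811 to 941 CPM in control siRNA samples). At an unadjusted p under 0.05, Rgs5 and Dcn were higher and Anpep lower among 9 tested fibroblast and pericyte markers. Tmem119, of 3 tested microglia and macrophage markers, and Eng, of 4 tested endothelial markers, were lower. Of the 7 tested glioma and progenitor markers 0 were higher and 0 lower. Over all genes tested the shares were 5.38% higher and 5.46% lower. None of these markers passed adjustment with edgeR. The part of these markers in the results was not tested.

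By level per length, the CC chemokines led. Ccl5 had the highest level per kb of exon, with a median of 78.4 CPM per kb over the 6 samples (range 69.4 to 93.2). Ccl7 followed at 37.4 CPM per kb (32.5 to 47.3), Ccl2 at 28.2 CPM per kb (22.8 to 29.5) and Lif at 24.3 CPM per kb (22.7 to 26.5). Csf1 stood at 9.47 CPM per kb (8.89 to 10.5), Cxcl1 at 4.02 CPM per kb (3.00 to 5.71) and Cxcl10 at 3.74 CPM per kb (3.19 to 5.02). Il6 lay at 0.0983 CPM per kb (0.0594 to 0.161), and Cxcl12 had 1 count in all. Over all 6 samples the ranges of Ccl2 and Lif overlapped, as did those of Cxcl1 and Cxcl10, while every other neighbouring pair had separate ranges. These ranges pool both groups. In control siRNA samples Ccl2 stood at 28.8 ± 0.769 and Lif at 23.6 ± 1.02 CPM per kb. In YY1 siRNA samples they stood at 25.5 ± 2.82 and 25.5 ± 1.42 CPM per kb. The exon lengths are those of all annotated transcripts merged, so a gene expressed mostly as a short transcript is understated on this scale.

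**Figure D1:**
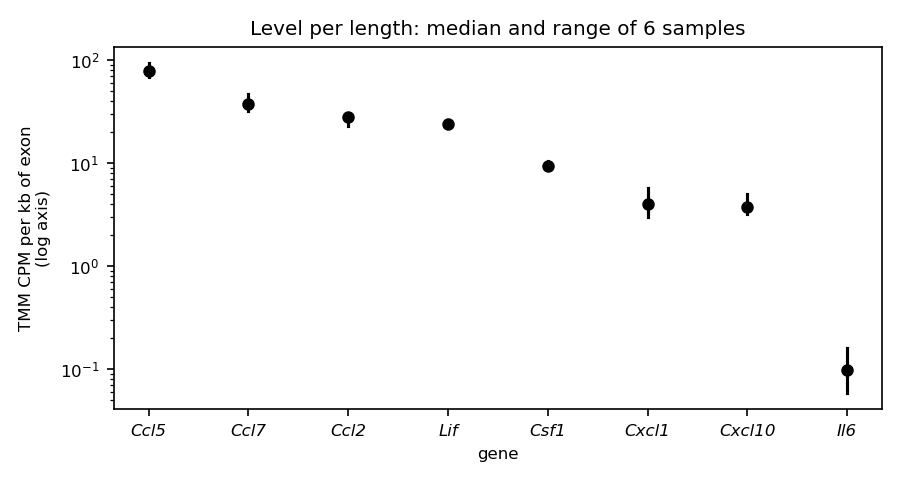
Level of 8 genes in CPM per kb of merged exon length on a log axis, with the median as a point and the range over all 6 samples as a bar. Ccl5 is highest at a median of 78.4 and Il6 lowest at 0.0983, and Cxcl12, with a median of 0, is not drawn.

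Over the 7 genes that passed the filter, 0 had an adjusted p under 0.05 with edgeR, 0 with DESeq2 and 0 with limma-voom. Over all 12148 genes tested with edgeR the share called was 0.00823%, which is 1 gene, Yy1, and with DESeq2 it was 0.149%. None of the 9 was called in the alternatives with larger shares either, which were 0.0576% with library size alone, 0.335% without YY1 siRNA sample 4 and 0.487% without the filter on low counts. At an unadjusted p under 0.05 there were 2 of the 7, against 10.8% of all genes tested. Ccl5 was the 1 lower gene, against 5.46% of all genes, and Cxcl1 the 1 higher gene, against 5.38%. The fitted change was below 0 in 4 of the 7 and above 0 in 3, with a median log2 fold change of -0.12, against 0.0007 over all genes tested. The 95% interval of 6 of the 7 held no change over 1.5-fold up or down, the exception being Cxcl1, and 82.2% of all genes tested had such an interval. Having passed a filter on counts, the 7 do not stand for the other two.

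**Figure D2:**
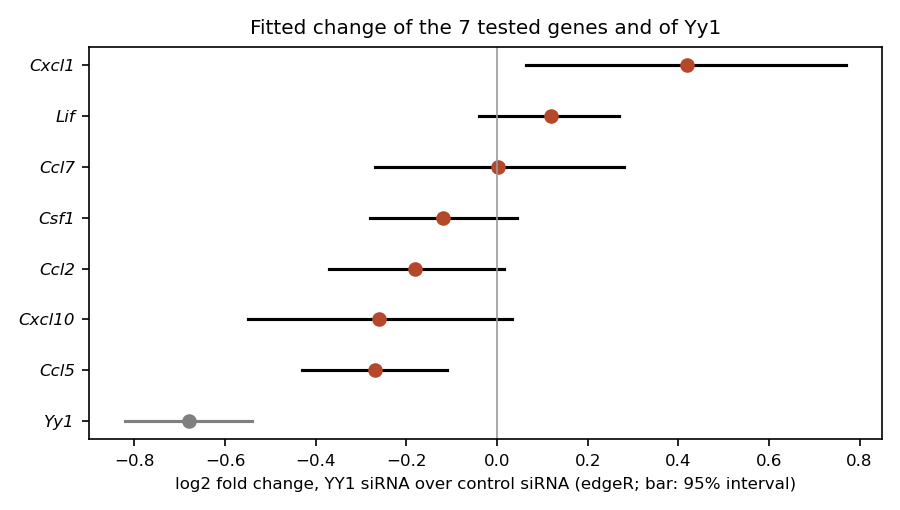
Log2 fold change of YY1 siRNA over control siRNA for the 7 tested genes and Yy1, with 95% intervals from edgeR. The intervals of Ccl5 (-0.43 to -0.11) and Cxcl1 (0.065 to 0.77) leave out 0 before any adjustment, and those of the other 5 secreted-factor genes include it.

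Ccl5, also called RANTES, draws T cells and monocytes and lies on the minus strand of chromosome 11 from 83525778 to 83530518 (mm10). It had 66.6, 66.6 and 72.2 CPM in YY1 siRNA samples 4, 5 and 6, against 89.5, 79.7 and 78.4 CPM in control siRNA samples 1, 2 and 3. Every YY1 siRNA sample lay below every control siRNA sample, and control siRNA sample 1 was the highest. It was the 1 gene of the 7 whose groups did not overlap, which was so for 16.3% of all genes tested and, downward, for 8.91%. Its fitted log2 fold change was -0.27 (SE 0.0756, unadjusted p 0.00361, edgeR adjusted p = 0.261). The fitted change stayed between -0.32 and -0.21 with each sample left out in turn, and its unadjusted p was under 0.05 in 13 of 13 alternatives. These edgeR, DESeq2 and limma-voom runs reuse the same 6 samples, and their adjusted p ran from 0.125 to 0.866.

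Ccl2 and Ccl7, the monocyte chemoattractants also called MCP-1 and MCP-3, are plus-strand neighbours at bases 82035571 to 82037453 (Ccl2) and 82045712 to 82047525 (Ccl7) of chromosome 11. Ccl2 had 28.9, 25.9 and 32.3 CPM in YY1 siRNA samples 4, 5 and 6, against 33.5, 31.8 and 33.0 CPM in control siRNA samples 1, 2 and 3. Samples 4 and 5 lay below all controls, while sample 6 lay above control siRNA sample 2. On the log2 scale Ccl2 differed by -0.18 (SE 0.0891, adjusted p = 0.482 with edgeR). It was -0.27 without YY1 siRNA sample 6 (adjusted p = 0.398) and -0.10 without YY1 siRNA sample 5 (adjusted p = 0.636). The annotation places Gm17268, not analysed here, on the other strand of Ccl2, and no source used here gives the strand setting of the counting.

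Ccl7 showed the widest spread among YY1 siRNA samples of the 3 CC genes, at 26.0, 28.3 and 37.9 CPM in samples 4, 5 and 6, against 30.8, 29.1 and 31.7 CPM in control siRNA samples 1, 2 and 3. Samples 4 and 5 lay below all controls and sample 6 above all of them. The fitted log2 change was 0.0026 (SE 0.124, adjusted p = 0.995 with edgeR), and without YY1 siRNA sample 6 it was -0.18 (SE 0.0839, adjusted p = 0.616). Within each library, the ratio of Ccl2 to Ccl7 counts was 1.11, 0.916 and 0.853 in YY1 siRNA samples 4, 5 and 6, against 1.09, 1.09 and 1.04 in control siRNA samples 1, 2 and 3. This ratio does not depend on library scaling, and the groups overlapped through sample 4.

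**Figure D3:**
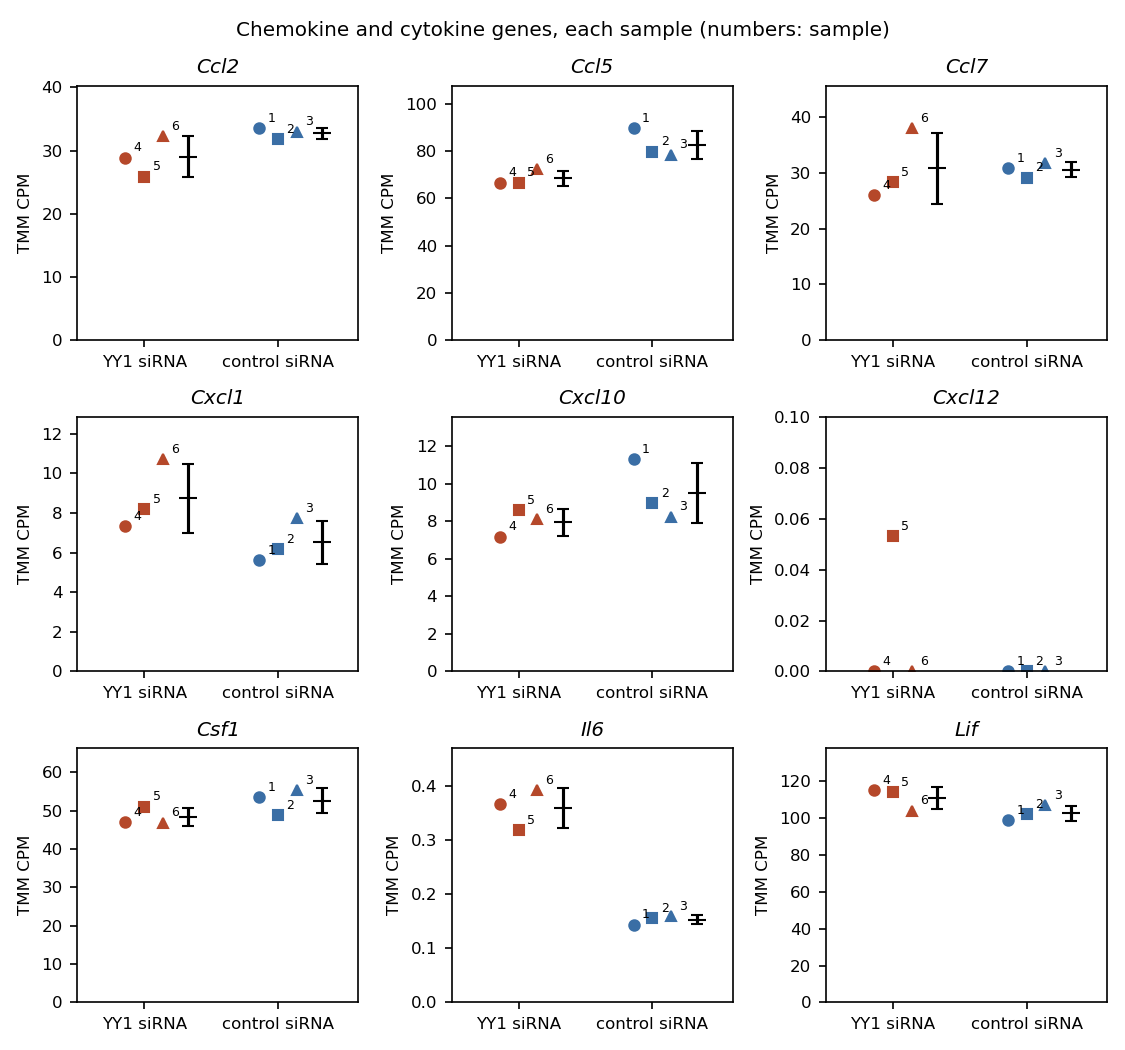
TMM CPM of each of the 9 genes in every sample, with YY1 siRNA on the left and control siRNA on the right of each panel, sample numbers beside the points, and mean and SD as black bars (none for Cxcl12). Ccl5 (66.6 to 72.2 CPM in YY1 siRNA samples against 78.4 to 89.5 CPM in control siRNA samples) and the sparse Il6 separate YY1 siRNA from control siRNA, while the other panels overlap. Of all genes tested 16.3% separated, a share that does not cover Il6.

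Cxcl1, a ligand for the neutrophil receptor Cxcr2, spans bases 90891241 to 90893115 of chromosome 5 (plus strand). It had 7.34, 8.18 and 10.7 CPM in YY1 siRNA samples 4, 5 and 6, against 5.63, 6.18 and 7.72 CPM in control siRNA samples 1, 2 and 3. Sample 6 was the highest, and sample 4 lay below control siRNA sample 3, so the groups overlapped. Cxcl1 had a log2 fold change of 0.42 (SE 0.162, unadjusted p 0.0241, edgeR adjusted p = 0.40), and it was 0.25 without YY1 siRNA sample 6 (adjusted p = 0.722). Its unadjusted p was under 0.05 in 10 of 13 alternatives, and was 0.116 without YY1 siRNA sample 6, 0.0863 without control siRNA sample 1 and 0.0717 without control siRNA sample 2. Reads counted under no feature made up 7.87%, 10.7% and 11.3% in YY1 siRNA samples 4, 5 and 6. In control siRNA samples 1, 2 and 3 they made up 7.99%, 8.64% and 9.03%. Where in the genome these reads lay is not given. Within each group, Cxcl1 rose in the order of this share. The samples with the highest shares, 5 and 6, had the highest Cxcl1. Between groups, YY1 siRNA sample 4, with the lowest share, had more Cxcl1 than control siRNA samples 1 and 2. The part of this share in the result was not tested.

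Cxcl10, an interferon-induced ligand of the T cell receptor for chemokines Cxcr3, lies on the minus strand of chromosome 5 from 92346638 to 92348889. It had 7.18, 8.60 and 8.10 CPM in YY1 siRNA samples 4, 5 and 6, against 11.3, 8.98 and 8.25 CPM in control siRNA samples 1, 2 and 3. Control siRNA sample 1 stood above the rest, and YY1 siRNA sample 5 lay above control siRNA sample 3. Cxcl10 differed by -0.26 on the log2 scale (SE 0.135, adjusted p = 0.494 with edgeR), and it was -0.12 without control siRNA sample 1 (adjusted p = 0.957). Art3, which overlaps the locus on the other strand, had 2 counts over all 6 samples. The ratio of Cxcl10 to Cxcl1 counts within each library was 0.979, 1.05 and 0.756 in YY1 siRNA samples 4, 5 and 6, against 2.01, 1.45 and 1.07 in control siRNA samples 1, 2 and 3. The groups did not overlap in this ratio, by a small margin between YY1 siRNA sample 5 and control siRNA sample 3, and the pair was chosen after its values were seen, so no test is given.

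Cxcl12, the ligand of Cxcr4 that holds progenitor cells in their niche, had 0, 1 and 0 counts in YY1 siRNA samples 4, 5 and 6 and 0 counts in each control siRNA sample. It lies on chromosome 6 from 117168535 to 117181367. A count of 0 allows up to 3 counts per library, or 0.145 to 0.191 CPM, for counting error alone. Any difference was not detectable at this depth.

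Il6, the founding cytokine of the gp130 family, lies on chromosome 5 from 30013114 to 30019981 and was near the limit of detection. It had 7, 6 and 6 counts in YY1 siRNA samples 4, 5 and 6, against 3, 3 and 3 counts in control siRNA samples 1, 2 and 3. All YY1 siRNA samples lay above all control siRNA samples. This was so for 7.36% of all genes tested, a share that does not cover genes under the filter such as Il6. Scaled by library size with TMM normalization, the ratio of summed counts, 19 over 9, was 2.34 (95% exact interval 1.01 to 5.87, for counting error alone). Il6 did not pass the filter on low counts. Without that filter edgeR gave an unadjusted p of 0.0568 and an adjusted p = 0.549, and the adjusted p from DESeq2 was 0.845.

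The promoters of Cxcl10, Cxcl1 and Il6 are shown as examples of inducible genes. They were picked after the values were seen, Cxcl10 leaning lower and Cxcl1 and Il6 higher. None of these leanings passed adjustment, so the motifs are not set against direction. RefSeq promoters (GRCm38.p6, which is mm10) matched 6 of the 9 genes, and Ccl2, Ccl5 and Ccl7 had no entry. The 250 bases before each start are printed 5′ to 3′ on the strand of the gene. Capitals mark 3 motifs, each searched on both strands. The NF-kB-like motif is GGGA, 2 bases of any kind, T, 1 base of any kind and CC, the interferon-response motif is GAAA, 2 bases of any kind and GAAA, and the AP-1-like motif is TGANTCA. They are chr5:92348890-92349139 on the minus strand for Cxcl10, chr5:90890995-90891244 on the plus strand for Cxcl1 and chr5:30012864-30013113 on the plus strand for Il6.
Cxcl10: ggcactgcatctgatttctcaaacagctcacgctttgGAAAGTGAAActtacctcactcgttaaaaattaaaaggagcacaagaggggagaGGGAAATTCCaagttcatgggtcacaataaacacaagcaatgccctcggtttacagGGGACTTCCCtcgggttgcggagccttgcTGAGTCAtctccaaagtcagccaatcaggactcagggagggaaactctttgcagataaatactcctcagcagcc
Cxcl1: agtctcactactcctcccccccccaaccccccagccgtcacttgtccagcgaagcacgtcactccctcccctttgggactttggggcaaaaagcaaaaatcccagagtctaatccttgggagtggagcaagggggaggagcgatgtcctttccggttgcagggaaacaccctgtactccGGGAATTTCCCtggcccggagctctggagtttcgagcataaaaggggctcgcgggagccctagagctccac
Il6: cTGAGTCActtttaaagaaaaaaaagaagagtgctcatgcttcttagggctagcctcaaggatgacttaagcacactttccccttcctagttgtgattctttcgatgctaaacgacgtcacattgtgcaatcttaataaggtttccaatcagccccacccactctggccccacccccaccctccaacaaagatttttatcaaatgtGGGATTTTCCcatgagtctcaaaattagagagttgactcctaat

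In order from the 5′ end, Cxcl10 holds the interferon-response match, 2 NF-kB-like matches and an AP-1-like match. Cxcl1 holds an NF-kB-like match that reads on both strands, shifted by 1 base, and Il6 an AP-1-like and an NF-kB-like match. Csf1 also holds an NF-kB-like match and Lif an AP-1-like one, while the Cxcl12 window holds none of the motifs. Over 32851 RefSeq promoter windows of the same length, 3.33% hold the NF-kB-like letters, 2.98% the interferon-response letters and 6.75% the AP-1-like letters. The YY1-like letters AANATGGCG, in 1.12% of windows, and the STAT-site letters TTCNNNGAA, in 7.02%, were in none of the 6 windows. These are matches of letters and not measured binding sites.

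Csf1, the macrophage growth factor, lies on the minus strand of chromosome 3 from 107741048 to 107760469. It had 47.1, 51.1 and 46.9 CPM in YY1 siRNA samples 4, 5 and 6, against 53.6, 48.9 and 55.3 CPM in control siRNA samples 1, 2 and 3. The groups overlapped through YY1 siRNA sample 5 and control siRNA sample 2. Csf1 differed by -0.12 on the log2 scale (SE 0.0753, adjusted p = 0.549 with edgeR), with a 95% interval of 82.2% to 103% of control. Il34, the other ligand of the Csf1 receptor, stood at 75.9 ± 4.13 CPM in YY1 siRNA samples and 81.9 ± 2.09 CPM in control siRNA samples (SD, n = 3 each; edgeR adjusted p = 0.551). Csf2, which supports granulocytes and macrophages, had 19.5, 20.2 and 26.4 CPM in YY1 siRNA samples 4, 5 and 6, against 18.3, 18.5 and 19.1 CPM in control siRNA samples 1, 2 and 3 (edgeR adjusted p = 0.471). Of the 5 colony stimulating factor and receptor genes tested, edgeR passed 0, and at an unadjusted p under 0.05 there were 0.

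Lif, which keeps mouse embryonic stem cells undifferentiated, spans bases 4257557 to 4272514 of chromosome 11 (plus strand). It had 115, 114 and 104 CPM in YY1 siRNA samples 4, 5 and 6, against 98.7, 102 and 107 CPM in control siRNA samples 1, 2 and 3. Samples 4 and 5 lay above all controls, and sample 6 lay below control siRNA sample 3. Lif differed by 0.12 on the log2 scale (SE 0.0712, adjusted p = 0.545 with edgeR), with a 95% interval of 97.4% to 121% of control. Among 11 ligands of the gp130 family 4 were tested. They include, besides Lif, Clcf1 (40.1 ± 3.37 CPM in YY1 siRNA and 36.7 ± 3.57 CPM in control siRNA samples) and Il11 (9.07 ± 0.762 CPM in YY1 siRNA and 10.2 ± 1.07 CPM in control siRNA samples). None of the 4 passed with edgeR, and none had an unadjusted p under 0.05.

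The 7 genes did not share 1 order of the 6 samples. Of the 7, YY1 siRNA sample 6 held the highest level of 2, Ccl7 and Cxcl1, and control siRNA sample 1 the highest of 3, Ccl2, Ccl5 and Cxcl10. As a description over 6 samples that share depth and handling, Pearson's r of log2 CPM was 0.83 for Ccl5 with Cxcl10, 0.81 for Ccl5 with Ccl2 and 0.56 for Ccl2 with Ccl7. It was -0.90 for Ccl5 with Lif. The closest of 12148 tested genes over 6 samples can reach a high r through the search alone, so no shared regulation is read from them. Among these genes the closest to Cxcl10 was Rsad2, an antiviral interferon-induced gene (r 0.980). Rsad2 ranged from 11.9 to 15.1 CPM in YY1 siRNA samples, against 14.1 to 18.6 CPM in control siRNA samples. Ago1 and Vav3 came next. For Ccl5 they were Klhl3, Tapt1 and Prmt3 (0.993 to 0.998), and those for Ccl2 include Cntnap4 and Kat8 (0.974 to 0.976). For Ccl7 they were Xpa, Phf11d and Sdhaf2 (0.991 to 0.998), and for Cxcl1 Itgb1bp1, Ormdl1 and Ddi2 (0.995 to 0.998). Those for Csf1 include Daglb and Nln (0.978 to 0.983), and Lif was closest to Cacnb1, Tle6 and Slc35e1 (up to 0.987).

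**Figure D4:**
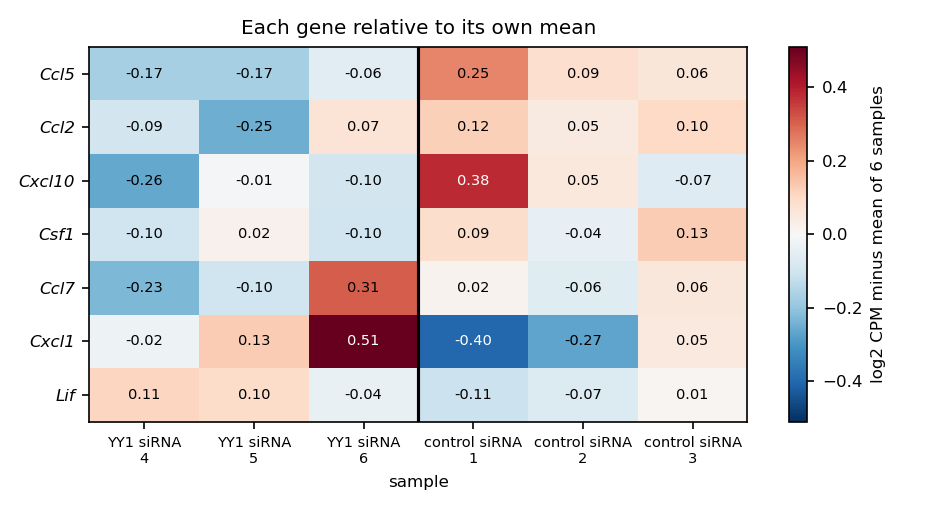
Log2 CPM of each tested gene in each sample minus its mean over the 6 samples, YY1 siRNA samples left of the line and control siRNA samples right of it. Ccl5 is below its mean in all 3 YY1 siRNA samples (-0.17, -0.17 and -0.056), while Ccl7 (0.31) and Cxcl1 (0.51) are highest in YY1 siRNA sample 6.

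Most chemokine ligand genes lay under 1 CPM. Counting those described above, 14 of 21 CC ligand genes were under 1 CPM, 7 of them with no count in any sample, and 13 of 17 CXC, CX3C and XC ligand genes were under 1 CPM, 6 of them with no count. Besides the genes described above, Ccl9, a myeloid chemoattractant of mouse, had 9.86, 9.82 and 12.7 CPM in YY1 siRNA samples 4, 5 and 6, against 6.73, 7.37 and 8.89 CPM in control siRNA samples 1, 2 and 3. Its groups did not overlap, which upward was so for 7.36% of all genes tested, and its log2 fold change was 0.49 (SE 0.138, unadjusted p 0.0039, edgeR adjusted p = 0.261). Cx3cl1, the membrane-bound ligand of microglia, stood at 31.0 ± 3.90 CPM in YY1 siRNA samples and 33.9 ± 2.47 CPM in control siRNA samples (edgeR adjusted p = 0.621). Among the 7 CC and 4 other ligand genes tested, 0 passed with edgeR, while 2 were higher at an unadjusted p under 0.05 (Ccl9 and Cxcl1) and 1 lower (Ccl5), against 5.38% and 5.46% of all genes.

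Of 12 receptor genes for the 9 ligands, named for that role, 6 averaged under 1 CPM and 6 averaged 1 CPM or more. Ccr2 had no count in any sample, and Csf1r had 9, Cxcr2 4 and Ccr3 3 over all 6 samples. Cxcr4 stood at 0.930 ± 0.208 CPM in YY1 siRNA samples and 0.988 ± 0.156 CPM in control siRNA samples. Ackr3, a scavenging receptor for Cxcl12, stood at 150 ± 6.88 CPM in YY1 siRNA and 149 ± 4.04 CPM in control siRNA samples. Il6st, which encodes gp130, stood at 136 ± 4.30 CPM in YY1 siRNA samples and 142 ± 4.70 CPM in control siRNA samples, and Il6ra and Lifr ranged from 29.0 to 34.8 and from 6.97 to 11.0 CPM over the 6 samples. Ccr1, a receptor for Ccl5 and Ccl7, had 3.62, 4.89 and 6.33 CPM in YY1 siRNA samples 4, 5 and 6, against 3.80, 3.27 and 3.92 CPM in control siRNA samples 1, 2 and 3 (edgeR adjusted p = 0.463). Cxcr3 had 1.21, 1.43 and 1.31 CPM in YY1 siRNA samples 4, 5 and 6, against 1.49, 1.97 and 2.06 CPM in the control siRNA samples, with no overlap, against 8.91% of all genes tested downward (edgeR adjusted p = 0.463). None of the 4 chemokine receptor genes tested passed with edgeR. None had an unadjusted p under 0.05, against 10.8% of all genes tested. Just above that cut lay Ccr1 (log2 fold change 0.41, edgeR unadjusted p 0.051) and Cxcr3 (-0.48, edgeR unadjusted p 0.0517).

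Genes downstream of gp130 and upstream of the inducible ligands did not pass with edgeR either. Of 20 receptor, kinase and feedback genes of the gp130 pathway tested, 0 passed and 2 were lower at an unadjusted p under 0.05, against 5.46% of all genes. These were the STAT-induced feedback genes Socs2 (11.4 ± 0.472 CPM in YY1 siRNA and 13.9 ± 0.452 CPM in control siRNA samples, edgeR adjusted p = 0.317) and Cish (1.30 ± 0.289 CPM in YY1 siRNA and 1.92 ± 0.097 CPM in control siRNA samples, edgeR adjusted p = 0.39). The median log2 fold change of the 20 was -0.053. Of 31 NF-kB pathway genes tested, 0 passed, 2 were higher and 1 lower at an unadjusted p under 0.05, and the median was -0.023. These counts are near the shares over all genes, 5.38% higher and 5.46% lower. The higher ones were Nfkbiz, a nuclear cofactor of NF-kB (37.5, 41.7 and 39.1 CPM in YY1 siRNA samples 4, 5 and 6, against 31.3, 32.3 and 32.8 CPM in control siRNA samples 1, 2 and 3, edgeR adjusted p = 0.21), and Birc2, a ubiquitin ligase of the pathway (43.7 ± 5.96 CPM in YY1 siRNA and 35.5 ± 2.84 CPM in control siRNA samples, edgeR adjusted p = 0.348). The lower one was Tnip1, which restrains NF-kB signalling (45.2 ± 4.83 CPM in YY1 siRNA and 52.4 ± 2.09 CPM in control siRNA samples, edgeR adjusted p = 0.416). Nfkb1, the most abundant NF-kB subunit gene by CPM, stood at 161 ± 12.7 CPM in YY1 siRNA and 161 ± 3.16 CPM in control siRNA samples.

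Among 10 interferon regulator genes tested, edgeR passed 0. At an unadjusted p under 0.05, 2 were lower, against 5.46% of all genes, and 0 higher, and the median log2 fold change was -0.055. Their summed level, with the 2 untested ones, was 591 to 629 CPM in YY1 siRNA samples and 646 to 744 CPM in control siRNA samples. Irf7, a master factor of interferon transcription, had 110, 116 and 126 CPM in YY1 siRNA samples 4, 5 and 6, against 172, 137 and 140 CPM in control siRNA samples 1, 2 and 3 (edgeR adjusted p = 0.23). Its groups did not overlap, which downward was so for 8.91% of all genes tested. Control siRNA sample 1 was the highest, as it was for Ccl2, Ccl5 and Cxcl10. Ifng had no count in any sample, and Ifnb1 was among the genes that did not pass the filter.

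Among 28 other secreted factors 20 were tested and 0 passed with edgeR, with 2 higher and 1 lower at an unadjusted p under 0.05, against 5.38% and 5.46% of all genes. The most abundant by CPM was Spp1, the matrix cytokine osteopontin, at 3344 ± 290 CPM in YY1 siRNA samples and 3058 ± 73.5 CPM in control siRNA samples (edgeR adjusted p = 0.623). Hgf, a ligand of the Met receptor, had 3.99, 3.03 and 3.79 CPM in YY1 siRNA samples 4, 5 and 6, against 2.21, 1.82 and 2.43 CPM in control siRNA samples 1, 2 and 3 (log2 fold change 0.74, SE 0.183, edgeR adjusted p = 0.202). Angpt2, a vessel-destabilising factor, stood at 10.3 ± 0.414 CPM in YY1 siRNA and 8.52 ± 0.327 CPM in control siRNA samples (edgeR adjusted p = 0.364). Vegfb, a relative of Vegfa, stood at 53.8 ± 6.79 CPM in YY1 siRNA samples and 66.2 ± 1.61 CPM in control siRNA samples (edgeR adjusted p = 0.265).

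**Figure D5:**
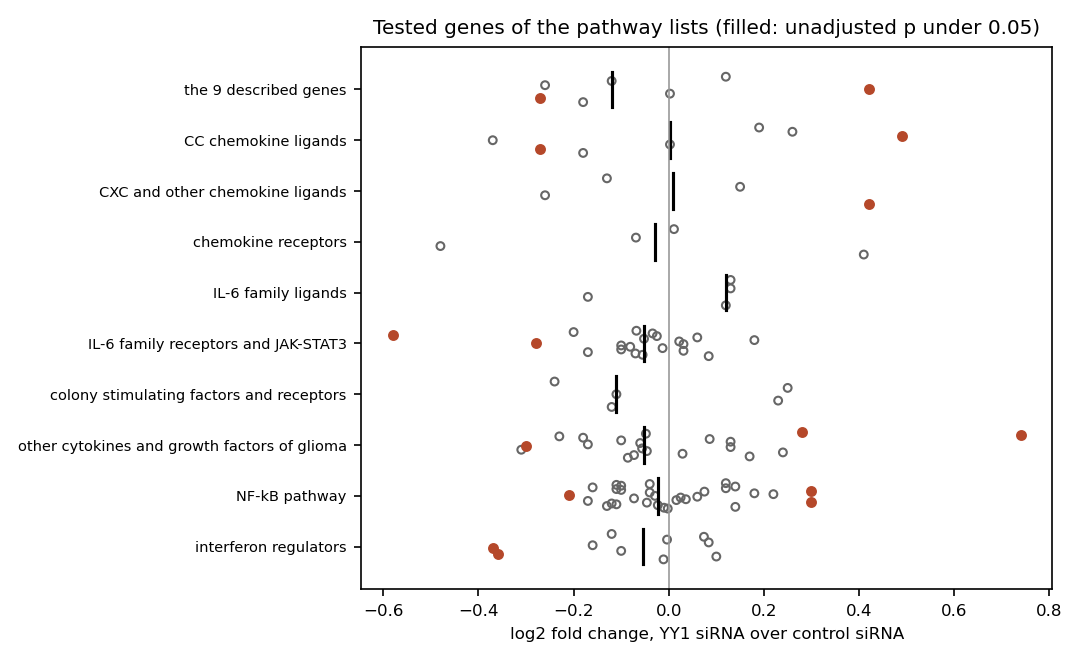
Log2 fold change of YY1 siRNA over control siRNA for every tested gene of 10 lists, 1 row per list, with filled points for an unadjusted p under 0.05 and a black line at the list's median. Medians run from -0.12 for the 9 described genes to 0.12 for the gp130 ligands, and no point passed adjustment over all genes.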

How the data were processed

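Each sample has a deposited table of unnormalized read counts by gene symbol, made by the authors. The tools named per the submitters' processing notes are STAR (2.6.1a) and edgeR (3.30.0), with the mm10 build. No source used here gives the counting program, annotation or strand setting. The 2 rows that name no gene hold 7.87% to 11.3% (no feature) and 1.01% to 1.15% (ambiguous) of a sample's counts, and entered neither library sizes nor tests. The test was edgeR 4.0.16's two-sided quasi-likelihood F test (R 4.3.3) on the deposited counts, with filterByExpr, TMM, robust dispersion and Benjamini-Hochberg adjustment at 0.05 over the 12148 genes kept. DESeq2 1.42.0, limma-voom (limma 3.58.1), other scalings, other filters and leaving out each sample were alternatives. The same fit was also run on counts simulated from its own estimates, and its recovery of changes as small as those described is not reported here. Correlations used log2 CPM with a prior count of 2. Exon lengths came from GENCODE M21. The 9 genes and the lists were chosen with earlier results of these data known. Named genes are the 9, Yy1, the 4 most abundant and 3 smallest-p genes of each list and the 3 genes most correlated with each tested gene. Receptors, markers under 1 CPM and genes at 0 were named outside this rule for their roles. Some genes the rule names are not reported here.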

Additional observations from a re-analysis of the deposited data

Results flagged for a closer look

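Reads counted under no feature take no part in the comparison. In YY1 siRNA samples 5 and 6 they made up 10.7% and 11.3% of counts, more than in any control siRNA sample (7.99% to 9.03%), while YY1 siRNA sample 4 had 7.87%.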

How the results depend on the processing

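No paired analysis was possible because the 2 groups share no sample number. Of 91 values of the 7 tested genes under the alternatives, 87 kept their sign and stayed past no threshold, 0 newly passed and 4 reversed. All 4 were Ccl7, at -0.021 with library size alone, -0.020 with limma-voom, and -0.18 to 0.12 with a sample left out, below 0 when YY1 siRNA sample 6 or control siRNA sample 2 (-0.030) was dropped. Of the 9 genes, 0 were called changed in every alternative run. The number at an unadjusted p under 0.05, whose alternatives were added after the data were seen, was 2 to 3 with other settings and 1 to 3 without each sample. It was 1 without control siRNA sample 1 or 2. Over the whole table, 1 gene was called changed in the reported fit, against 83 with no filter on low counts, 19 with DESeq2 and 7 with library size alone. Dropping a sample gave 1 to 41 changed genes: 41 after dropping YY1 siRNA sample 4, 3 after YY1 siRNA sample 6 and 2 after control siRNA sample 3. For all of these, the cause was not tested. Yy1 passed under every alternative run (log2 fold change -0.71 to -0.67, largest adjusted p 0.0439). Depth limits Il6 and Cxcl12, which have few counts or none.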
